A study of Mus musculus with 6 samples.

Results

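Laminins are secreted glycoproteins of basement membranes, each built from 1 alpha, 1 beta and 1 gamma chain that are products of separate genes. The chains join in a coiled coil inside the cell, and in many laminins, though not all, the short arms polymerise into a sheet outside it. The globular end of the alpha chain is bound by integrins and by dystroglycan. Epithelia are known for a laminin with α3 and β3 chains, which anchors hemidesmosomes, and for α5β1γ1, the common laminin of mature epithelial and vascular basement membranes, whereas α2 and α4 chains are typical of muscle, nerve and vessel walls. The 9 genes described here, Lama1 to Lama5, Lamb1 to Lamb3 and Lamc1, were chosen by name from the 24214 features counted in every sample. Lamc3, a further gamma chain gene, is given beside them for comparison.

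RNA sequencing was done on stable transfectants of an epithelial lung adenocarcinoma line of the C57BL/6 strain. The cells carried a ZEB1 expression vector (393P_ZEB1, 3 samples) or the empty vector (393P_vector, 3 samples), and both groups were grown in RPMI-1640 with serum. ZEB1 is a zinc finger repressor that drives epithelial-to-mesenchymal transition (EMT), and the comparison asks what its ectopic expression does to the transcriptome of an epithelial tumour cell. The labels do not say whether the samples of a group were separate transfections or cultures, so p-values measure the spread between these samples, which may be technical.

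Total counts were 54442450 to 79158012 per sample, and 13892 features passed the filter on low counts. Levels are given as CPM, the counts scaled to the normalised library size, and 3 counts, taken as the smallest level that can be shown, were worth 0.0361 to 0.0561 CPM. Zeb1 itself was at 21.2, 22 and 21.4 CPM in 393P_vector and 54.9, 48.9 and 51.3 CPM in 393P_ZEB1, which may include reads from the vector. It was higher by 1.26 on the log2 scale (SE 0.10, edgeR adjusted p = 6.06e-05), in the direction the labels give. Among 7 epithelial marker genes 6 were lower and 0 higher, including Cdh1, the adhesion molecule E-cadherin, at a log2 fold change of -4.09. Of 5 mesenchymal marker genes 5 were higher. Of all genes tested, 19.3% were lower and 18.3% higher. Some of the marker changes were small, such as -0.61 for Krt8 and 0.41 for Vim. Summed marker levels of fibroblasts (7 genes, 1.39 to 3.27 CPM), endothelium (6 genes, 0.684 to 2.69 CPM) and leukocytes (6 genes, 1.46 to 4.39 CPM) were low in all samples. The third 393P_vector sample stood apart from the other 2 (chi-square per degree of freedom 303 and 332 against 21.1 between those 2). Results for the laminin chains are therefore given with and without it where it matters. Fold changes of single genes in the other lists are given with it only.

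A pair of promoter windows is shown, since ZEB1 is known to bind E-boxes: a window of Lamb3, which was lower in 393P_ZEB1, and that of Lama5, which was not called. Another Lamb3 window, at the start used for the counts, held 0 matches and is described below. The windows are those of RefSeq on GRCm38.p6, reach from 250 bases before to 50 bases after a transcription start, and are described for 5 of the 9 chains. Capitals mark CAGGTG or CAGGTA, searched on both strands and therefore also written CACCTG or TACCTG. The 2 motifs share their first 5 letters and cannot cover the same 6 bases. The Lamb3 window is chr1:193301993-193302292 on the plus strand and the Lama5 window chr2:180225810-180226109 on the minus strand, both printed 5′ to 3′.
Lamb3: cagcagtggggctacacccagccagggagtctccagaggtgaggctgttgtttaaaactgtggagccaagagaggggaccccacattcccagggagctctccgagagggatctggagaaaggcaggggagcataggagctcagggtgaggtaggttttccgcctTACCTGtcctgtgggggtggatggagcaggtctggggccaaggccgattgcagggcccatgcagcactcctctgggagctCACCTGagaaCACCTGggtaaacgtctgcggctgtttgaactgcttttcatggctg
Lama5: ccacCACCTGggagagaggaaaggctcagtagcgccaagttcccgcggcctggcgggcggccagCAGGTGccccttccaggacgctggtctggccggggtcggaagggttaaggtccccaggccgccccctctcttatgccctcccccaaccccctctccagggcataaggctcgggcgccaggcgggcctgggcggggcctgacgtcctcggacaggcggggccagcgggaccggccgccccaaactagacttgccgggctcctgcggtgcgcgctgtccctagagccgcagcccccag

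The Lamb3 window held 3 matches, 1 of CAGGTA at bases -86 to -81 and 2 of CAGGTG at -6 to -1 and at 5 to 10 from the start. The Lama5 window held 2 matches of CAGGTG, at -246 to -241 and -186 to -181. Both motifs are common, since CAGGTG stood in 20.2%, CAGGTA in 12% and either in 29.5% of all 32851 windows. A second Lamb3 window, chr1:193301744-193302043, whose start at base 193301994 is the one the count tables use, held 0 matches, as did the windows of Lamb1, Lamb2 and Lama2. A match or its absence describes these letters in these windows, and binding was not measured. Windows of Lama1, Lama3, Lama4 and Lamc1 are not described here. The motifs therefore say nothing about Lama3, the chain with the largest change.

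Of the 9 laminin chains 8 passed the filter on low counts, and 3 of the 8 were called at an adjusted p below 0.05 (edgeR quasi-likelihood test, Benjamini-Hochberg over all 13892 genes). Lamc1 was higher and Lama3 and Lamb3 were lower. Of all genes tested, 37.6% were called, 18.3% higher and 19.3% lower, so a share of 3 in 8 lies near the background and is not a result about laminins as a family. The median log2 fold change of the 8 was -0.03, beside -0.024 over all genes. What follows therefore concerns single chains: the α3 and β3 chains of the hemidesmosomal laminin were lower, Lama3 by 40.4-fold and Lamb3 by 1.91-fold, while the chains of α5β1γ1 were either not called (Lama5, Lamb1) or higher (Lamc1).

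Levels per kilobase of exon (CPM per kb) allow the genes to be ranked. In 393P_vector Lamb1 was the most abundant member at 160 ± 30.4 CPM per kb (SD, n = 3), followed by Lama5 at 95.5 ± 25.8, Lamb3 at 88.6 ± 23.0, Lamc1 at 57.7 ± 6.83, Lamb2 at 19.2 ± 4.22 and Lama3 at 6.26 ± 0.239. The ranges of Lama5 and Lamb3 overlapped, the third sample being low for both, while within each of the 3 samples Lama5 was above Lamb3 (109 against 96.9, 111 against 106 and 65.7 against 62.6 CPM per kb). In 393P_ZEB1 the order was Lamb1 at 171 ± 15.1, Lama5 at 104 ± 9.71, Lamc1 at 88.3 ± 3.58, Lamb3 at 46.3 ± 3.14, Lamb2 at 17.3 ± 1.53 and Lama3 at 0.155 ± 0.0142 CPM per kb, with no overlap between neighbours. Lamc1 and Lamb3 thus exchanged places. Lama1, Lama2 and Lama4 lay between 0.0109 and 0.0564 CPM per kb in all 6 samples, and the order of these 3 at such levels was not read.

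**Figure D1:**
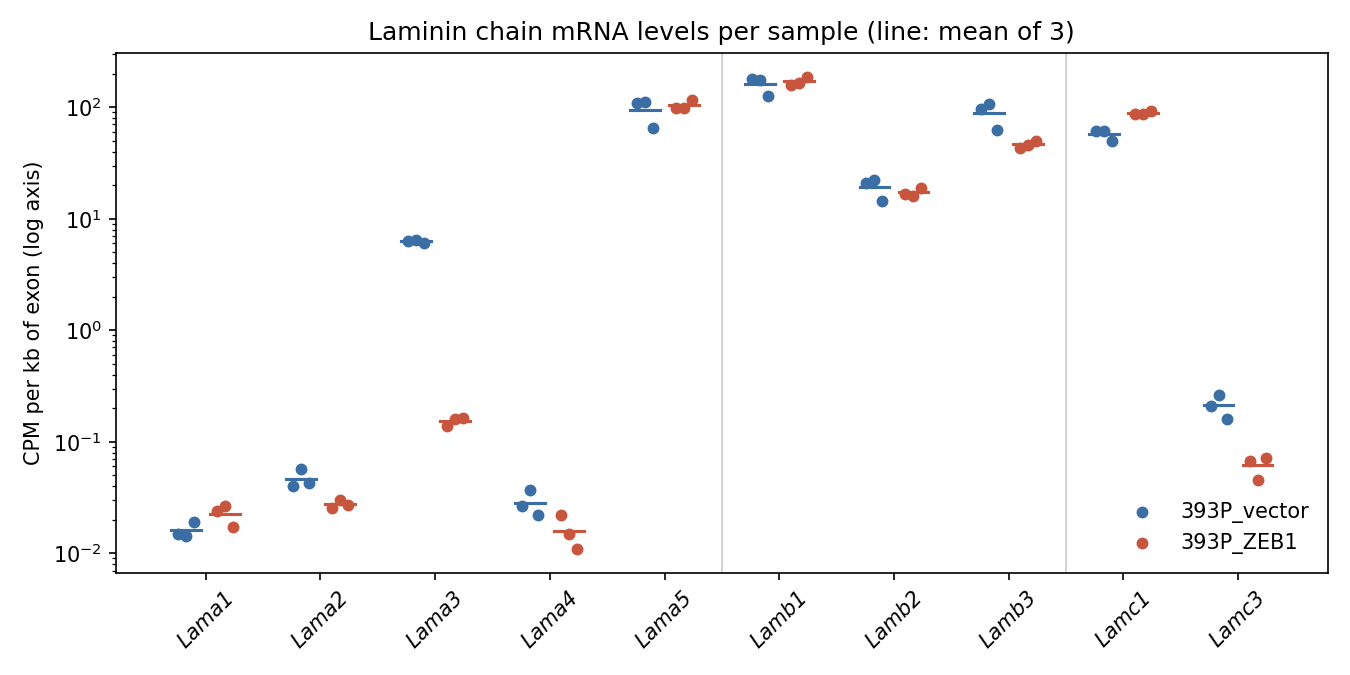
Levels of the 9 laminin chains and Lamc3 in each sample, in CPM per kb of exon on a log axis, with 3 points and a line at their mean for 393P_vector (blue) and 393P_ZEB1 (red). Lama3 lies at 6.00 to 6.47 CPM per kb in 393P_vector and 0.138 to 0.164 in 393P_ZEB1, while Lama5 and Lamb1 overlap between the groups.

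Lama3 encodes the alpha chain of the hemidesmosomal laminin and lies on chr18:12334024-12583012. It had 3671, 3907 and 5118 counts in the 393P_vector samples and 76, 92 and 103 counts in the 393P_ZEB1 samples. As normalised levels these were 64.9, 66.4 and 61.6 CPM against 1.42, 1.66 and 1.69 CPM. The groups were far apart and the samples within each were close, the third 393P_vector sample included. The log2 fold change was -5.34 (SE 0.14, 95% interval -5.65 to -5.02, edgeR adjusted p = 3.71e-07), and -5.37 without the third 393P_vector sample. An exact permutation test gave p = 0.1 (two-sided), the smallest that 3 samples against 3 allow. In a bulk sample, fewer cells that express a gene and less RNA per cell cannot be told apart.

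The count tables also give, for each gene, the number of exons with more than 10 reads. For Lama3 this was 37, 38 and 37 of 75 exons in the 393P_vector samples, although even spreading of the reads would have put 48.9, 52.1 and 68.2 counts on each exon. The reads were thus unevenly spread over the gene model. The mouse gene is known for a long and a short transcript, and GENCODE M21 lists one with 75 exons over 10548 bases (from base 12333819) and one with 38 exons over 5551 bases (from base 12504199), both ending at base 12583013. The number of exons with more than 10 reads equals or is 1 short of the exon number of the shorter form. Exons with 10 reads or fewer are left out of it, and the tables do not say which exons were counted. Divided by the length of the shorter transcript, the level was 11.7, 12 and 11.1 CPM per kb in 393P_vector and 0.256, 0.298 and 0.304 in 393P_ZEB1. In 393P_ZEB1 0 of the 75 exons passed 10 reads in each sample, where even spreading would have put 1.01 to 1.37 counts on each.

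Lama5 encodes the alpha chain of the common epithelial and vascular laminin and lies on chr2:180176373-180225859. It was at 1234, 1261 and 743 CPM in 393P_vector and 1104, 1110 and 1297 CPM in 393P_ZEB1, with more than 10 reads on 79 of 79 exons in every sample. The groups overlapped with and without the third 393P_vector sample, which was the lowest of the 6. The log2 fold change was 0.12 (SE 0.21, 95% interval -0.36 to 0.60, edgeR adjusted p = 0.689), and it turned to -0.09 (adjusted p = 0.436) without that sample.

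The other 3 alpha chains were near the limit of detection. Lama2, the alpha chain of muscle and nerve laminin (chr10:26981285-27616942), had 22, 32 and 34 counts in 393P_vector and 13, 16 and 16 in 393P_ZEB1. The groups did not overlap, and the log2 fold change of -0.75 (SE 0.28, 95% interval -1.39 to -0.11) missed the threshold (edgeR adjusted p = 0.0662). Lama1, the alpha chain of embryonic basement membranes (chr17:67697265-67822645), had 8 to 15 counts in 393P_vector and 10 to 14 in 393P_ZEB1, with overlapping groups and a log2 fold change of 0.45 (95% interval -0.33 to 1.24, edgeR adjusted p = 0.328). Lama4, found in vessel walls (chr10:38965515-39110188), had 9 to 13 counts against 4 to 7 and did not pass the filter, so it was not tested. None of the 3 genes had an exon with more than 10 reads in any sample.

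Lamb3 encodes the beta chain of the hemidesmosomal laminin and lies on chr1:193301994-193343878, and one of its promoter windows is printed above. It was at 391, 428 and 252 CPM in 393P_vector and 175, 184 and 200 CPM in 393P_ZEB1. All 393P_vector samples were above all 393P_ZEB1 samples, the third by the least. The log2 fold change was -0.94 (SE 0.19, 95% interval -1.39 to -0.49, edgeR adjusted p = 0.00726), a fold of 1.91, and -1.13 without the third 393P_vector sample. Lamb3 thus remained well expressed in 393P_ZEB1, with more than 10 reads on 23 of 23 exons in every sample, where Lama3 was nearly lost. The level of Lama3 over that of Lamb3 was taken per kb of the deposited exon length. It was 0.0652, 0.0609 and 0.0958 in 393P_vector and 0.00318, 0.00353 and 0.00331 in 393P_ZEB1. With the length of the shorter Lama3 transcript these ratios would be higher in both groups.

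Lamb1 encodes the beta chain of the α5β1γ1 trimer and lies on chr12:31265294-31329639. It was at 1023, 1015 and 716 CPM in 393P_vector and 916, 949 and 1080 CPM in 393P_ZEB1. The groups overlapped, again with the third 393P_vector sample lowest. The log2 fold change was 0.10 (SE 0.16, 95% interval -0.28 to 0.47, edgeR adjusted p = 0.67), and -0.05 without that sample. Across the 6 samples the tested gene whose log2 level was most like that of Lamb1 was Lama5, which encodes the alpha chain of the same trimer (Pearson r = 0.992, a description over 6 libraries that include the low 393P_vector sample).

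Lamb2, the beta chain of laminins at the neuromuscular junction and in the kidney filter (chr9:108479862-108490530), was at 116, 125 and 80.6 CPM in 393P_vector and 93.9, 89.8 and 106 CPM in 393P_ZEB1. The groups overlapped through the third 393P_vector sample. Its log2 fold change was -0.15 (SE 0.17, 95% interval -0.55 to 0.25, edgeR adjusted p = 0.524). Without that sample it was -0.32 and passed the threshold (edgeR adjusted p = 0.0121), so whether Lamb2 was lower turned on this 1 library.

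Lamc1 encodes the gamma chain shared by most laminins and lies on chr1:153218922-153332786. It was at 468, 467 and 378 CPM in 393P_vector and 657, 654 and 702 CPM in 393P_ZEB1. Every 393P_ZEB1 sample was above every 393P_vector sample. The log2 fold change was 0.62 (SE 0.12, 95% interval 0.34 to 0.89, edgeR adjusted p = 0.00529), a fold of 1.53, and 0.52 without the third 393P_vector sample. It was the sole laminin chain of the 9 tested, Lamc3 included, that was called higher.

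Lamc3, which encodes another gamma chain (chr2:31887281-31946535), had 70, 92 and 79 counts in 393P_vector and 21, 15 and 26 in 393P_ZEB1. The groups did not overlap, with a log2 fold change of -1.77 (SE 0.29, edgeR adjusted p = 0.00258) at a level under 2 CPM. None of these 10 genes overlapped another feature of the tables.

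**Figure D2:**
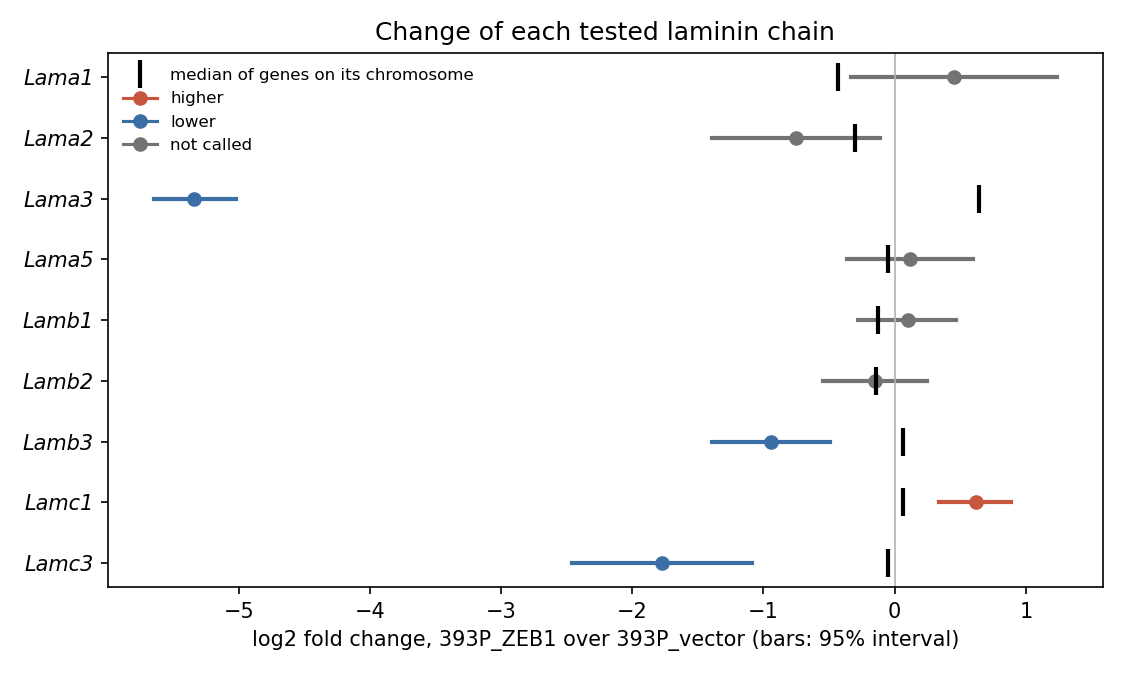
Log2 fold change of each tested laminin chain, 393P_ZEB1 over 393P_vector, with its 95% interval as a bar and the median of all tested genes on the same chromosome as a black mark. Lama3 at -5.34 stands far to the left, and Lamc1 at 0.62 is the sole chain called higher. The intervals of Lama1, Lama5, Lamb1 and Lamb2 include 0.

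Median changes differed between chromosomes, so each chain is set beside the genes of its own. The median log2 fold change was 0.64 over the 396 tested genes of chromosome 18, which holds Lama3, against -0.04 over all other chromosomes. Taken from the median of its chromosome, Lama3 was at -5.97. Chromosome 1, which holds Lamb3 and Lamc1, had a median of 0.06, and the medians for Lama5 (-0.05), Lamb1 (-0.13) and Lamb2 (-0.14) were also small. Chromosome 17 had a median of -0.43 and chromosome 10 one of -0.30, which touches the 2 low chains Lama1 and Lama2: taken from these, their differences were 0.88 and -0.45. Copy number was not measured, and its part in these values was not tested.

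The balance among alpha chains and among beta chains can be read as the share of each chain in the summed CPM per kb of its family, which is a measure of mRNA and not of assembled protein. Among alpha chains Lama5 made up 94.5%, 94.4% and 91.5% in 393P_vector and 99.8% in each 393P_ZEB1 sample. Lama3 held 5.47%, 5.48% and 8.36% and then 0.141%, 0.164% and 0.143%. Lama3 was divided here by its full deposited exon length. Divided by the shorter transcript described above, it was at 11.7, 12 and 11.1 CPM per kb in 393P_vector, beside 109, 111 and 65.7 for Lama5. Its share in 393P_vector would then be larger. By either length the alpha family was mostly Lama5 in both lines, and the called change was in Lama3, a smaller part of that family.

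Among beta chains Lamb1 took 60.2%, 57.9% and 61.8% in 393P_vector and 72.6%, 72.8% and 73.3% in 393P_ZEB1. Lamb3 went from 32.8%, 34.8% and 31.0% to 19.8%, 20.2% and 19.3%. Lamb2 stayed between 7.01% and 7.64% in all 6 samples. All 3 beta chains were low together in the third 393P_vector sample, whose shares lay near those of the other 2. The groups did not overlap for the shares of Lamb1 and Lamb3.

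Between families, the level per kb of Lamc1 came closer to those of Lamb1 and Lama5. The ratio of Lamb1 to Lamc1 was 2.89, 2.87 and 2.5 in 393P_vector and 1.84, 1.92 and 2.03 in 393P_ZEB1, without overlap. The ratio of Lama5 to Lamc1 was 1.77, 1.81 and 1.32 in 393P_vector and 1.13, 1.14 and 1.24 in 393P_ZEB1, without overlap.

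**Figure D3:**
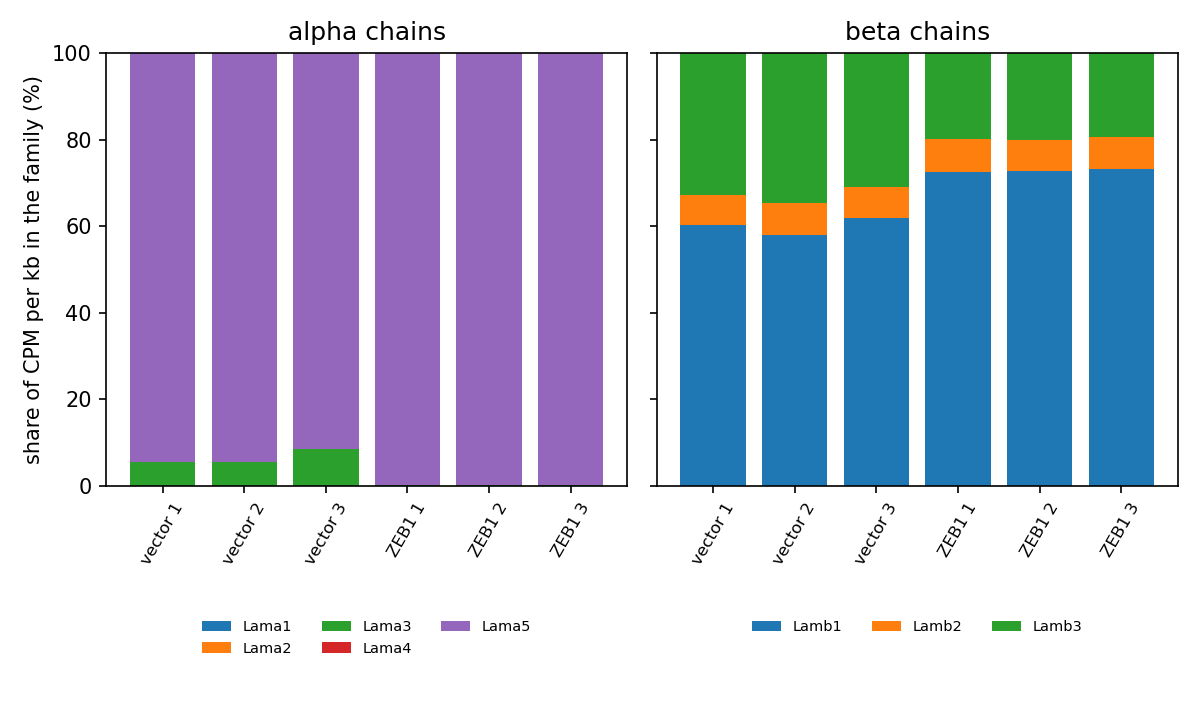
Share of each alpha chain (left) and beta chain (right) in the summed CPM per kb of its family, in percent, as stacked bars for the 3 samples of 393P_vector and the 3 of 393P_ZEB1. Lama5 takes 91.5% to 94.5% of alpha chain mRNA in 393P_vector and 99.8% in 393P_ZEB1, with Lama3 divided by its full deposited exon length. Lamb3 takes 31.0% to 34.8% and then 19.3% to 20.2% of beta chain mRNA.

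The miR-200 family, which ZEB1 is known to repress and which targets ZEB1 in turn, is a common point of reference in EMT, and its seeds are shown to place the matches in laminin transcripts. Mature sequences are those of RefSeq, with the seed (bases 2 to 8) in capitals. The first 3 share a seed whose match in a transcript is CAGTATT, and the other 2 one whose match is CAGTGTT.
mmu-miR-200b-3p: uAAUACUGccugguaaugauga
mmu-miR-200c-3p: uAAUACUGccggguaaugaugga
mmu-miR-429-3p: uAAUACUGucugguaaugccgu
mmu-miR-200a-3p: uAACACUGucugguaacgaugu
mmu-miR-141-3p: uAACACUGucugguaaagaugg

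In the longest coding transcript of GENCODE M21, Lamc1 was the sole member with a match in its 3′ UTR, with 3 matches, shown in capitals within 23 bases of transcript. They lie on the minus strand of GRCm38.p6 at chr1:153218959-153218965, chr1:153220358-153220364 and chr1:153219876-153219882, in the order printed. Lamc3, which was called lower, also held 1 match, of CAGTATT, in a 3′ UTR of 1125 bases.
Lamc1 match 1: aaagaaaaCAGTATTttatttat
Lamc1 match 2: cccgctctCAGTGTTtctcaagg
Lamc1 match 3: ctagtcccCAGTGTTttgctcca

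The 3′ UTR of Lamc1 is 2551 bases long and those of the other 8 members are 110 to 368 bases, so a match in the others had far less room to occur. Over the 11848 tested genes with a 3′ UTR, 14.5% held CAGTATT, 19.0% CAGTGTT and 28.1% either. The mature microRNAs were not measured in these libraries, and microRNA genes among the counted features were not examined here. The part of these matches in the level of Lamc1 was not tested.

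The genes whose log2 level was most like that of each chain over the 6 samples are given as a description. For Lama3 this was Slc4a11, a membrane transporter (Pearson r = 1.00, log2 fold change -5.40), but 425 genes had an r above 0.99 with Lama3, since any gene with a large and even difference between the lines does. For Lamb3 it was 1810008A18Rik, with 63 such genes, and for Lamc1 it was Speg, a muscle kinase, with 105. For Lama5 it was Ddx41, an RNA helicase, with 9 such genes, and for Lamb2 Pdcd11, with 3. For the low chains Lama1 and Lama2 it was Pcnp and L3mbtl1.

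Receptors for laminins moved in both directions. Of 10 tested, 4 were higher and 3 lower, beside 18.3% and 19.3% of all genes, with a median log2 fold change of 0.00. Itga1, the collagen and laminin binding integrin α1, went from 0.318, 0.170 and 0.409 CPM in 393P_vector to 33.1, 32.0 and 30.8 CPM in 393P_ZEB1 (log2 fold change 6.70, SE 0.27, edgeR adjusted p = 2.16e-06). It was barely detected in one line and plainly expressed in the other. Bcam, the Lutheran receptor that binds laminin α5, went from 200, 219 and 135 CPM to 44.2, 41.5 and 45.4 CPM (log2 fold change -2.08, SE 0.18, edgeR adjusted p = 9.58e-05). The ligand chain Lama5 was not called, as given above.

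Integrin α6β4 is the laminin receptor of hemidesmosomes, and its 2 subunits moved in opposite directions. Itgb4 was at 196, 190 and 122 CPM and then 72.0, 85.5 and 88.0 CPM (log2 fold change -1.05, SE 0.19, edgeR adjusted p = 0.00389). Itga6, which also pairs with β1, was at 868, 862 and 759 CPM and then 1381, 1262 and 1297 CPM (log2 fold change 0.66, SE 0.11, edgeR adjusted p = 0.00226). For both genes the groups did not overlap. Itgb1, the β1 subunit of most laminin-binding integrins, was at 1776 ± 156 and 1734 ± 197 CPM (log2 fold change -0.03, 95% interval -0.33 to 0.26), and Dag1, which encodes dystroglycan, at 163 ± 13.1 and 147 ± 5.69 CPM (log2 fold change -0.15, 95% interval -0.38 to 0.09). These 2 were named after their values were seen.

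Of 7 hemidesmosome genes, 3 of which are also in the receptor list, 1 was higher and 3 were lower, beside 18.3% and 19.3% of all genes, with a median log2 fold change of -0.42. Beside Itga6 and Itgb4 the rule named Col7a1, the anchoring fibril collagen that binds the hemidesmosomal laminin. It was at 65.8, 84.0 and 35.0 CPM in 393P_vector and 21.6, 18.8 and 25.3 CPM in 393P_ZEB1, without overlap (log2 fold change -1.49, SE 0.30, edgeR adjusted p = 0.00639).

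Of 18 genes for other parts of the basement membrane 17 were tested (Nid2 was not), and 4 were higher and 3 lower, with a median log2 fold change of -0.03. Nid1, which encodes nidogen, the protein that links laminin γ1 to collagen IV, was at 131, 130 and 115 CPM in 393P_vector and 376, 350 and 364 CPM in 393P_ZEB1 (log2 fold change 1.54, SE 0.10, edgeR adjusted p = 1.84e-05). Nid1 and its binding partner Lamc1 were thus both higher. Col4a5, a collagen IV chain, was higher by 1.28 (SE 0.24, edgeR adjusted p = 0.0047). The proteoglycan Agrn, which binds the laminin coiled coil, was at 480, 501 and 303 CPM and then 186, 205 and 221 CPM (log2 fold change -1.07, SE 0.20, edgeR adjusted p = 0.00406). Col18a1, the source of endostatin, had a log2 fold change of -0.87 (SE 0.27, edgeR adjusted p = 0.0365), and the third 393P_vector sample, at 407 CPM, lay beside the highest 393P_ZEB1 sample at 406. The 7 calls of 17 lay near the 37.6% called among all genes. Without the third 393P_vector sample 12 genes of this list were called, while the count over all genes went from 5218 to 7476. The number of genes tested in that fit is not given here, so the shares were not compared.

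Of 5 proteases known to cut laminin chains Tll1, Tll2 and Mmp2 were too low to be tested. Bmp1, a protease that trims secreted matrix proteins, was at 133, 137 and 93.4 CPM in 393P_vector and 77.0, 77.2 and 78.2 CPM in 393P_ZEB1 (log2 fold change -0.65, SE 0.15, edgeR adjusted p = 0.0135), and Mmp14 was not called. The call on Bmp1 was lost when any 1 sample of 393P_ZEB1 was left out. The median of the 2 tested was -0.40.

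**Figure D4:**
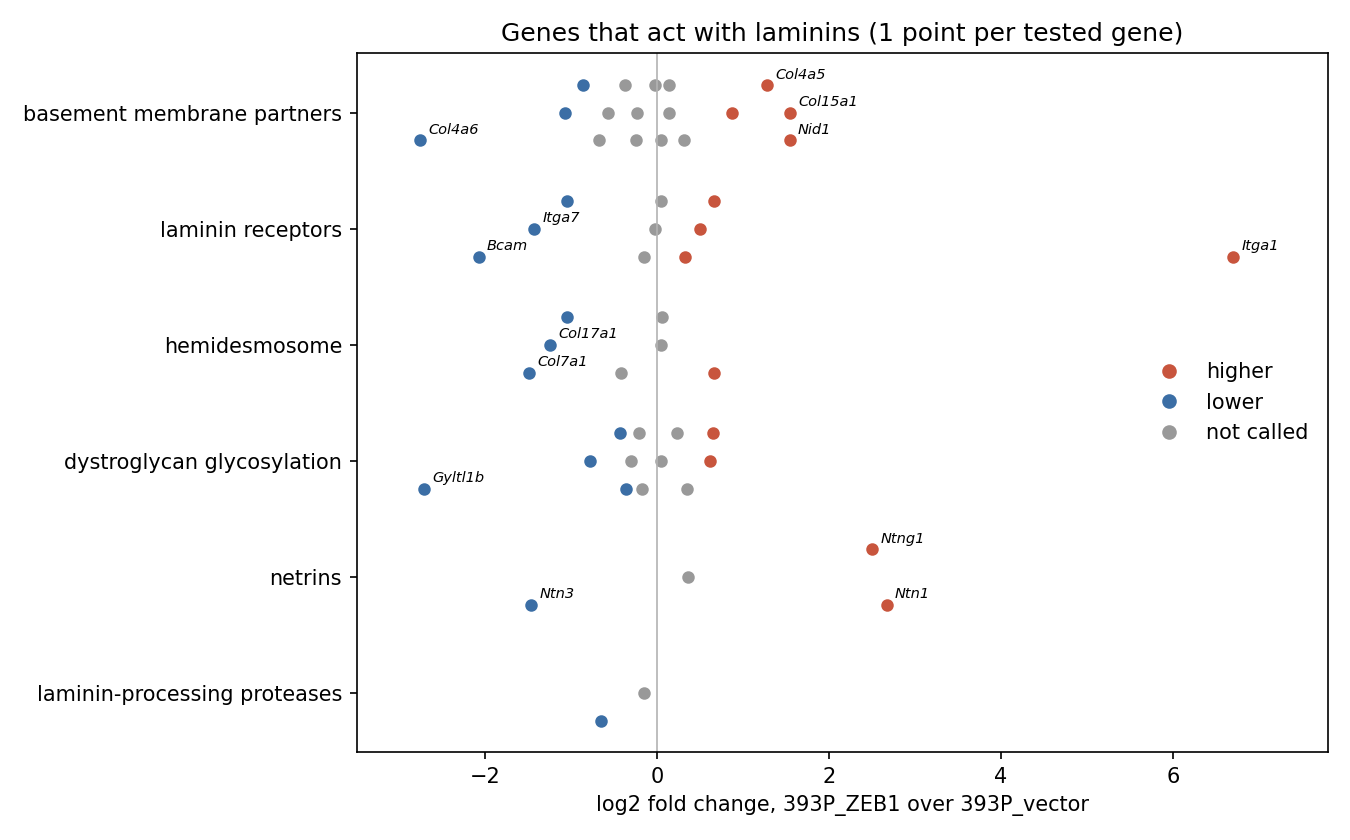
Log2 fold change, 393P_ZEB1 over 393P_vector, of each tested gene in 6 lists of genes that act with laminins or resemble them, 1 point per gene, coloured by whether it was called higher, lower or neither. Points lie on both sides of 0 in the receptor and basement membrane lists, and Itga1 at 6.70 lies farthest out.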

How the data were processed

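Total RNA of 6 samples, 3 of 393P_vector and 3 of 393P_ZEB1, was sequenced on the SOLiD platform, and samples were grouped by the vector in their labels. The authors deposited, for each of 24214 RefSeq features per sample, the unnormalised read count, the RPKM and the number of exons with more than 10 reads. The deposited RPKM values, counts scaled by exon length and library size, were not used further. The deposited exon numbers were used for Lama3 and the other chains. Aligner, counting program and use of strand are not given in the sources used here, and coordinates matched GRCm38. Whether reads were counted at more than 1 copy of a sequence is also not given in the sources used here, and 115 features carried a repeated symbol.

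Counts were fitted in R 4.3.3 with edgeR 4.0.16 (filterByExpr with a minimum count of 10, TMM scaling, robust quasi-likelihood fit, condition as the sole term, Benjamini-Hochberg adjustment over 13892 genes, threshold 0.05). The biological coefficient of variation was 0.184. Totals were 57844355, 59735316 and 79158012 counts in 393P_vector and 54442450, 55159915 and 61251074 in 393P_ZEB1. The level taken as the floor was 3 counts, which covers counting error only. Same-group pairs differed by a chi-square per degree of freedom of 21.1 to 332, so no pair lay within sampling noise. The exact permutation test used log2(CPM + 0.1). CPM per kb used the deposited exon length. The fit was tested on simulated data first.

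The members and lists were chosen with earlier results of these data known. All 9 chains were described, and 1 further laminin gene is not reported here. In each list up to 4 genes were named, those past the threshold with a mean of at least 5 CPM, by size of change. The most alike gene was that with the highest Pearson r of log2(CPM + 0.1). Promoter and miRNA sequences were taken from RefSeq on GRCm38.p6, and 3′ UTRs and the Lama3 transcripts from GENCODE M21. The miR-200 search, the ratios and the Lama3 transcripts were added after the values were seen. Alternatives used DESeq2 1.42.0 (its size factors and its Wald test), limma 3.58.1 (voom), other filters, a test against a fold change of 1.5, an adjusted p of 0.01, a fit without the 10 most counted genes, the replicate block, and each sample left out in turn. Python 3.11.15 with NumPy 2.4.6, SciPy 1.17.1, pandas 2.3.3 and matplotlib 3.10.9 was used for the rest.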

Additional observations from a re-analysis of the deposited data

How the results depend on the processing

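Lama3 and Lamc3 were called lower in each of the 15 settings with a test. Lamb3 (log2 fold change -1.13 to -0.78) and Lamc1 (0.52 to 0.67) were called in 14, and were lost when tested against a fold change of 1.5, at -0.94 (adjusted p = 0.0926) and 0.62 (adjusted p = 0.601). In that setting 0 laminin chains were higher and 1 was lower, with 2199 genes past the threshold, 1081 higher and 1118 lower, and with 4 receptors, 2 hemidesmosome genes, 1 dystroglycan glycosylation gene and 0 proteases. At an adjusted p below 0.01 there were 3129 genes, 1584 higher and 1545 lower, with 3 glycosylation genes and 0 proteases. Limma voom with sample weights, which gives less weight to deviating samples, called 8071 genes, 3977 higher and 4094 lower, with 12 basement membrane genes, 10 glycosylation genes and 2 proteases. It gave -0.06 for Lama5 and -0.03 for Lamb1, both turned in sign and not called, and -0.29 for Lamb2 (adjusted p = 0.0142).

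With each sample left out in turn, log2 fold changes ran from -0.09 to 0.25 for Lama5, -0.05 to 0.19 for Lamb1 and -0.32 to -0.02 for Lamb2. The lowest value of each, and the call on Lamb2 (adjusted p = 0.0121), came without the third 393P_vector sample. Genes past the threshold ran from 3645 to 7476, those higher from 1861 to 3700 and those lower from 1784 to 3776, all highest without that sample. Basement membrane genes ran from 6 to 12, glycosylation genes from 3 to 9 and proteases from 0 to 2. The 3 glycosylation calls came without 393P_vector replicate 1 or 393P_ZEB1 replicate 3.

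Lama2 passed the threshold among genes with at least 10 counts in every sample, at -0.76 (adjusted p = 0.0484). Less the median of its chromosome, the log2 fold change was 0.88 for Lama1, -0.45 for Lama2 and -5.97 for Lama3. Causes of these differences were not tested.

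Same-numbered samples deviated from their group means with r of 0.225, -0.151 and -0.031 across genes, and unequal numbers with -0.14 to 0.178, so the numbers were not taken to pair samples. With the replicate block 4436 genes were called and the laminin calls did not change: -5.34 for Lama3, -0.90 for Lamb3 (adjusted p = 0.0173), 0.62 for Lamc1 (adjusted p = 0.0195), 0.15 for Lama5, 0.11 for Lamb1 and -0.13 for Lamb2. Depth limits Lama1, Lama2 and Lama4, at 4 to 34 counts a sample. A change of these 3 genes may be present and not detectable at this depth.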

Other observations

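Binding of laminins by dystroglycan needs a sugar chain that is built on it by a series of enzymes. Of 13 genes for this series 12 were matched and tested, and 2 were higher and 4 lower, beside 18.3% and 19.3% of all genes, with a median log2 fold change of -0.19. B3gnt1, which primes the laminin-binding glycan, was at 38.6, 38.6 and 48.2 CPM in 393P_vector and 23.6, 23.9 and 25.6 CPM in 393P_ZEB1 (log2 fold change -0.78, SE 0.13, edgeR adjusted p = 0.00238). B3galnt2 had a log2 fold change of 0.65 (edgeR adjusted p = 0.00629), Pomt2, an O-mannosyltransferase, one of -0.44 (edgeR adjusted p = 0.0132) and Tmem5 one of -0.37 (edgeR adjusted p = 0.0395). Gyltl1b, which extends the laminin-binding glycan, was too low for the naming rule and is given after its values were seen: 6.32, 7.04 and 7.66 CPM in 393P_vector and 1.18, 0.882 and 1.13 CPM in 393P_ZEB1, a log2 fold change of -2.72 (SE 0.19, edgeR adjusted p = 2.32e-05).

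Netrins are secreted or anchored guidance proteins whose amino-terminal domains are related to those of laminins. Of 6 genes 4 were tested (Ntn5 and Ntng2 were not), 2 were higher and 1 lower, beside the same shares of all genes, with a median log2 fold change of 1.43. None met the level required for naming together with the test. Named after its values were seen, Ntn1 was at 0.936, 0.901 and 0.578 CPM in 393P_vector and 5.44, 4.91 and 4.93 CPM in 393P_ZEB1 (log2 fold change 2.67, SE 0.23, edgeR adjusted p = 7.46e-05). Ntn4, which binds the laminin γ1 arm, was at 8.79 ± 0.935 and 11.2 ± 1.58 CPM (SD, n = 3), with a log2 fold change of 0.36 (95% interval -0.01 to 0.72) that was not called.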
